A study of Mus musculus with 180 samples.

Results

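The comparison described here set 3 samples of mouse bone marrow-derived macrophages (BMDM) treated with Pimasertib, an allosteric inhibitor of the kinases MEK1 and MEK2, against 6 samples treated with the vehicle DMSO. The 9 samples were taken by their treatment labels from a series of 180 samples that covered 58 clinical kinase inhibitors (CKIs), with 3 samples for each CKI and 2 sets of 3 DMSO samples. Of 45070 genes, the 12714 whose normalized values averaged 10 or more over the series were tested. All the cells were differentiated from the marrow of young male wild type C57/BL6 mice, received the CKI or DMSO for 1 h and were then stimulated with bacterial lipopolysaccharide (LPS) at 10 ng/mL for 2 h. The DMSO samples were thus LPS-stimulated too, and no sample without LPS was used here. Each CKI was given at a concentration chosen for that compound from its binding to its intended target, and the concentrations therefore differ between the CKIs. RNA was measured by polyA RNA-seq with a Smart-seq2 protocol, and the values are the authors' exon read counts scaled on genes that varied little between samples, called normalized values here.

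LPS binds the receptor TLR4 and activates, beside NF-kB and the kinases p38 and JNK, a branch of the MAPK pathway in which the kinase encoded by Map3k8 (TPL2) phosphorylates MEK1 and MEK2. In resting macrophages TPL2 sits in a complex with the adaptor encoded by Tnip2 and the NF-kB precursor p105. Here p105 keeps TPL2 inactive, and TPL2 is released when p105 is degraded. MEK1 and MEK2, encoded by Map2k1 and Map2k2, have the ERK kinases, among them ERK1 (Mapk3), as their main substrates, and active ERK phosphorylates transcription factors such as ELK1, which acts at immediate-early genes together with SRF. The pathway is dampened by products of its own target genes, among them phosphatases of the DUSP family and the Sprouty proteins.

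Before the results, several properties of the samples need to be given. The estimated number of reads behind the normalized values was 12.3 M to 13.4 M in the Pimasertib samples and 11.4 M to 13.6 M in 5 of the 6 DMSO samples, and for replicate 2 of the second DMSO set it could not be estimated. The share of mitochondrially encoded transcripts was 4.29%, 3.24% and 3.45% in the 3 Pimasertib samples, against a lowest value of 0.759%, a median of 0.989% and a highest value of 1.94% in the DMSO samples. The groups did not overlap in this share, and 19 of the other samples of the series had a share as high as the lowest Pimasertib sample or higher. The summed level of 10 macrophage markers, such as Csf1r, Adgre1 and Cd68, lay between 189988 and 228014 in the Pimasertib samples and between 103314 and 218588 in the DMSO samples. The summed level of 10 neutrophil markers was 1374 to 1583 in the Pimasertib samples and 303 to 1016 in the DMSO samples. The summed level of 10 lymphocyte markers was 31 to 35 against 3 to 42, that of 7 dendritic cell markers 140 to 179 against 93 to 158, and that of 12 stromal, mast and erythroid markers 56 to 80 against 36 to 158. Of the lymphocyte markers Cd79b alone passed the filter, with 16, 23 and 22 against 0, 8 and 20 (1.496, SE 0.63, adjusted p = 0.0698, limma), and others, such as Cd79a and Ncr1, were listed at 0 in all 9 samples. In these bulk samples, fewer cells of a type and less RNA per cell cannot be told apart.

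**Figure D1:**
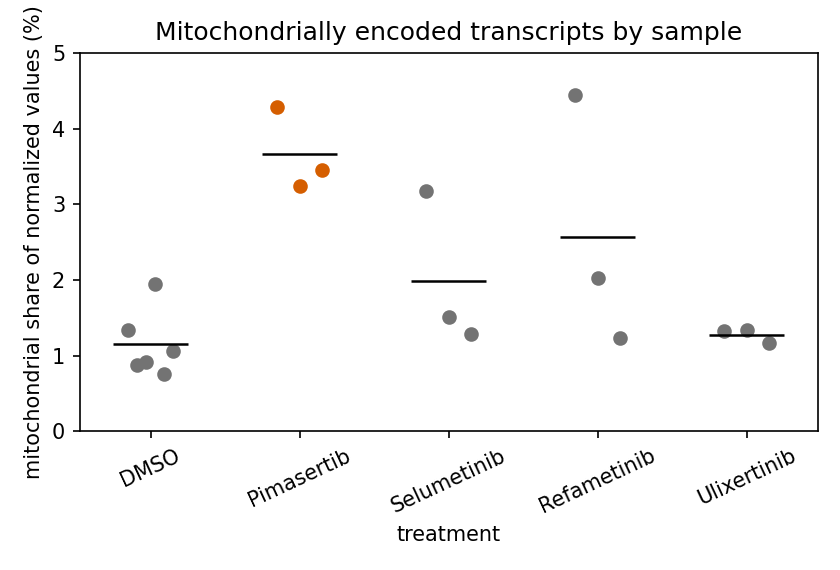
Share of normalized values on mitochondrially encoded genes, in percent, for each sample (points) of DMSO, Pimasertib and 3 related inhibitors, with the group mean as a bar. The 3 Pimasertib samples sit at 3.24% to 4.29%, above all 6 DMSO samples, and 1 sample each of Selumetinib and Refametinib reached 3.18% and 4.45%.

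A total of 2753 genes differed between the Pimasertib and DMSO samples at an adjusted p-value under 0.05 (21.7% of the 12714 tested). Of these, 2031 were higher (16.0%) and 722 were lower (5.68%) in the Pimasertib samples than in DMSO. Genes were compared with limma after a log2 transformation with a pseudocount of 1. The differences below are log2 fold changes on this scale, Pimasertib minus DMSO, with their standard error (SE), and they understate the change of low genes. All 3 Pimasertib samples lay below all 6 DMSO samples for 557 genes (4.38%), of which 435 were called lower (3.42%), and above them for 1618 genes (12.7%), of which 1297 were called higher (10.2%). The 2 DMSO sets compared with each other gave 0 called genes in the limma test, with 310 (2.44%) at an unadjusted p under 0.05. By the number of called genes, Pimasertib ranked 5 among the 58 CKIs. The median of all genes was shifted by 0.12, and with a scaling that puts this median near 0 (median of ratios) the 2655 calls (20.9%) divided into 1247 higher (9.81%) and 1408 lower (11.1%), so that the share of higher calls went from 73.8% to 47%.

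The balance between rises and falls also moved with the mitochondrial share and with single samples. When the mitochondrial share entered the fit as a covariate, an analysis added after the data had been seen, 300 genes were called (2.36%), 118 higher (0.928%) and 182 lower (1.43%), among them 71 of the 2031 rises and 129 of the 722 falls. Because the share did not overlap between the groups, an effect of Pimasertib and a difference that goes with this share cannot be told apart gene by gene. A total of 129 falls and 50 rises were called in the fit without the covariate, in the fit with it and with the median of ratios scaling. Leaving out Pimasertib replicate 3 left 371 higher and 292 lower genes, and leaving out Pimasertib replicate 2 left 830 and 553. Without Pimasertib replicate 1 there were 1646 and 337, and without replicate 2 of the second DMSO set 800 and 345.

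**Figure D2:**
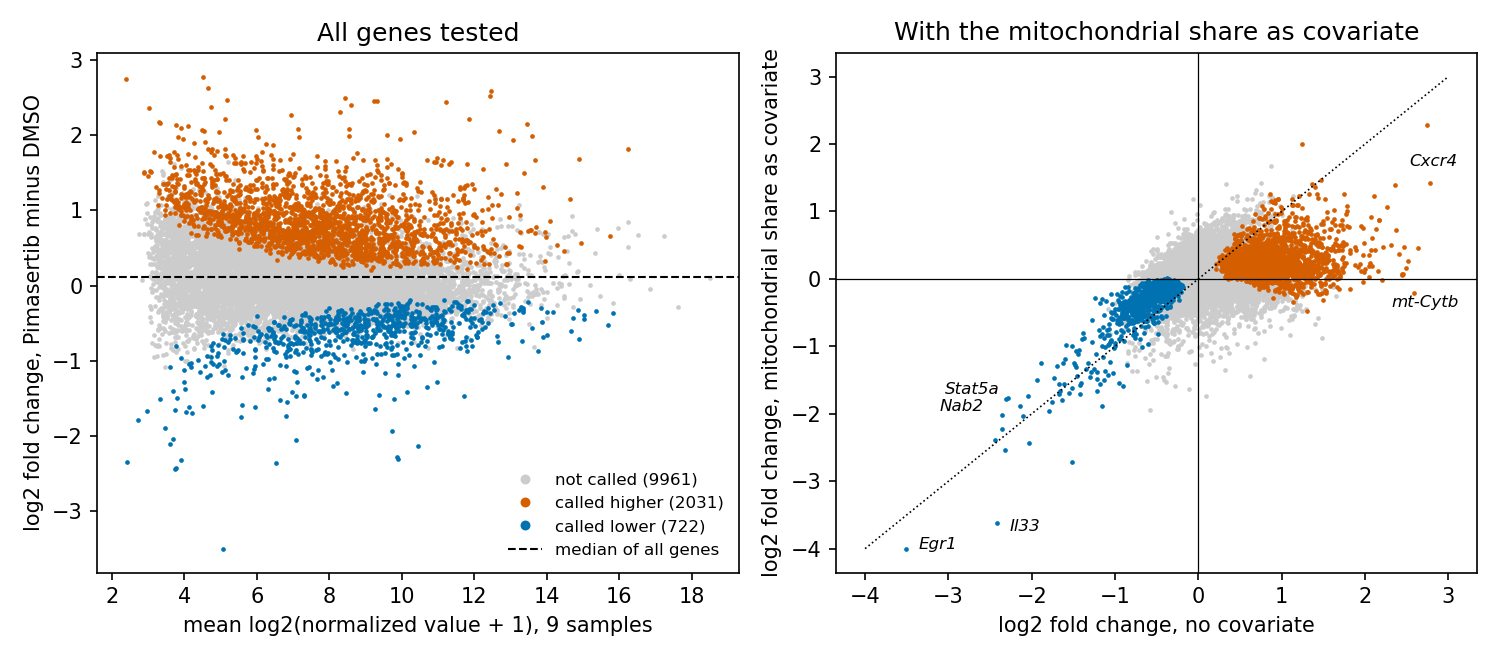
Left, log2 fold change (Pimasertib minus DMSO) against mean log2(normalized value + 1) over the 9 samples for all 12714 genes, with called genes in colour and the median of all genes (0.12) dashed. Right, the same fold changes against those with the mitochondrial share as a covariate, with the line of equality dotted. Egr1, Il33, Nab2 and Stat5a lie far below 0 on both axes, whereas mt-Cytb and most of the genes called higher lie near 0 on the vertical axis.

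The transcripts of the kinases themselves were examined first. Map2k1, which encodes MEK1, had values of 1755, 2012 and 1799 in the Pimasertib samples and a lowest value of 1995, a median of 2802 and a highest value of 4672 in DMSO. It was lower by a log2 fold change of -0.65 (SE 0.22, adjusted p = 0.029, limma), with overlapping groups. The call was lost when any of the 3 Pimasertib samples, replicate 3 of the first DMSO set or replicate 2 of the second set was left out. It was also lost with the mitochondrial share as covariate (-0.07, adjusted p = 0.913, limma). Map2k2, which encodes MEK2, had 284, 349 and 332 against a DMSO median of 365 and did not pass the test (-0.10, SE 0.36, adjusted p = 0.865, limma). Per kilobase of exon, the mean level in DMSO was 1245 for Map2k1 and 148 for Map2k2. Mapk3, which encodes ERK1, did not pass either (0.10, SE 0.15, adjusted p = 0.665, limma).

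Of the 33 components of the ERK pathway that passed the filter (of 34 listed), 5 were lower and 4 were higher, and their median difference was 0.28 beside 0.12 for all genes. The counts of this list and of those below stand beside 16.0% higher and 5.68% lower among all tested genes. At the entry of the LPS branch, Map3k8 and Tnip2 were among the lower ones. Nfkb1, the gene of their partner p105, belongs to the NF-kB list below and was called in neither direction. Map3k8 had 1357, 2018 and 1381 against 1870 to 2436 in DMSO (-0.49, SE 0.15, adjusted p = 0.0156, limma). Tnip2 had 253, 305 and 301 against 400 to 590, without overlap (-0.75, SE 0.16, adjusted p = 0.000801). Elk1, the transcription factor downstream of ERK, was also lower without overlap, at 107, 112 and 145 against 160 to 279 (-0.85, SE 0.20, adjusted p = 0.00262), as was Rps6ka4, which encodes the kinase MSK2 (-0.70, SE 0.22). The higher members included the adaptor gene Grb2 (0.93, SE 0.33) and the kinase genes Rps6ka3 (0.80) and Mknk2 (0.76). None of the 9 members called was called with the mitochondrial share as covariate. Leaving out Pimasertib replicate 1 or 3 left 2 lower members, Map3k8 being lost each time, and leaving out replicate 2 of the second DMSO set left 3. Without Pimasertib replicate 2 or without that DMSO sample no higher member was called, without Pimasertib replicate 1 or 3 or replicate 3 of the first DMSO set there was 1, and without replicate 1 of the second DMSO set there were 7.

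The largest falls without overlap between the groups included transcription factors, a corepressor, secreted proteins and receptors. Egr1, a zinc finger transcription factor and immediate-early gene, had normalized values of 6, 6 and 5 in the Pimasertib samples and of 31, 84.5 and 148 as the lowest, median and highest value in DMSO. Even the lowest DMSO sample was several times above the Pimasertib samples, and the difference was -3.50 (SE 0.51, adjusted p = 2.31e-07, limma), an 11.3-fold lower level on this scale. Nab2, which encodes a corepressor that binds EGR proteins (mm10 chromosome 10, 127660918 to 127666703, minus strand), had 22, 43 and 29 against 110, 163.5 and 231. The difference of -2.36 had the lowest adjusted p of the falls named here (SE 0.23, adjusted p = 2.11e-14, limma), and Nab2 overlaps the well expressed gene Stat6 on the opposite strand. The mean of the Pimasertib samples was the lowest of the 59 treatment groups for both Egr1 and Nab2.

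Stat5a, which encodes a transcription factor activated by cytokine receptors such as that of GM-CSF (mm10 chromosome 11, 100859351 to 100885169, plus strand), had 388, 793 and 445 against 1706, 1952 and 3857, and the highest Pimasertib sample lay far below the lowest DMSO sample (-2.14, SE 0.27, adjusted p = 1.30e-09, limma). Il4i1, encoding a secreted L-amino acid oxidase, had 197, 655 and 277 against 1019, 1425 and 2887 (-2.31, SE 0.35, adjusted p = 8.63e-07). Il4i1b, the other of the 2 entries at this locus, lies over the same exons on the same strand and could share its reads, so the pair stands for 1 observation. Replicate 2 was the highest of the Pimasertib samples for both Stat5a and Il4i1. Phlda1, one of the genes used to score MAPK pathway activity, had 79, 34 and 51 against 170, 226.5 and 267 (-2.05, SE 0.30, adjusted p = 2.38e-07).

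The other genes among the largest falls were expressed at low levels. Il33, an alarmin cytokine of the IL-1 family, had 2, 4 and 5 against 9, 20 and 70 (-2.42, SE 0.51, adjusted p = 0.000692, limma). Tnc, the matrix glycoprotein tenascin C, had 2, 6 and 3 against 8, 25 and 43 (-2.43, SE 0.56). Lif, leukemia inhibitory factor, had 2, 1 and 0 against 6, 7.5 and 17 (-2.35, SE 0.48). Gpr4, a proton-sensing receptor, had 11, 10 and 0 against 17, 26 and 30 (-2.32, SE 0.33), and without Pimasertib replicate 3, which was listed at 0, the difference was -1.15 (adjusted p = 0.0271, limma). Lag3, an inhibitory immune receptor, had 4 in each Pimasertib sample against 10, 20 and 30 (-2.03, SE 0.48). Lancl3 had 1, 5 and 7 against 9, 20.5 and 32 (-2.11, SE 0.44). At such values the counting error is large, and the size of these falls is less certain than that of Stat5a or Nab2. All 12 of the largest falls, with Il4i1 and Il4i1b counted as 2, were called with each of the 9 samples left out in turn, with the median of ratios scaling and with the mitochondrial share as covariate.

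**Figure D3:**
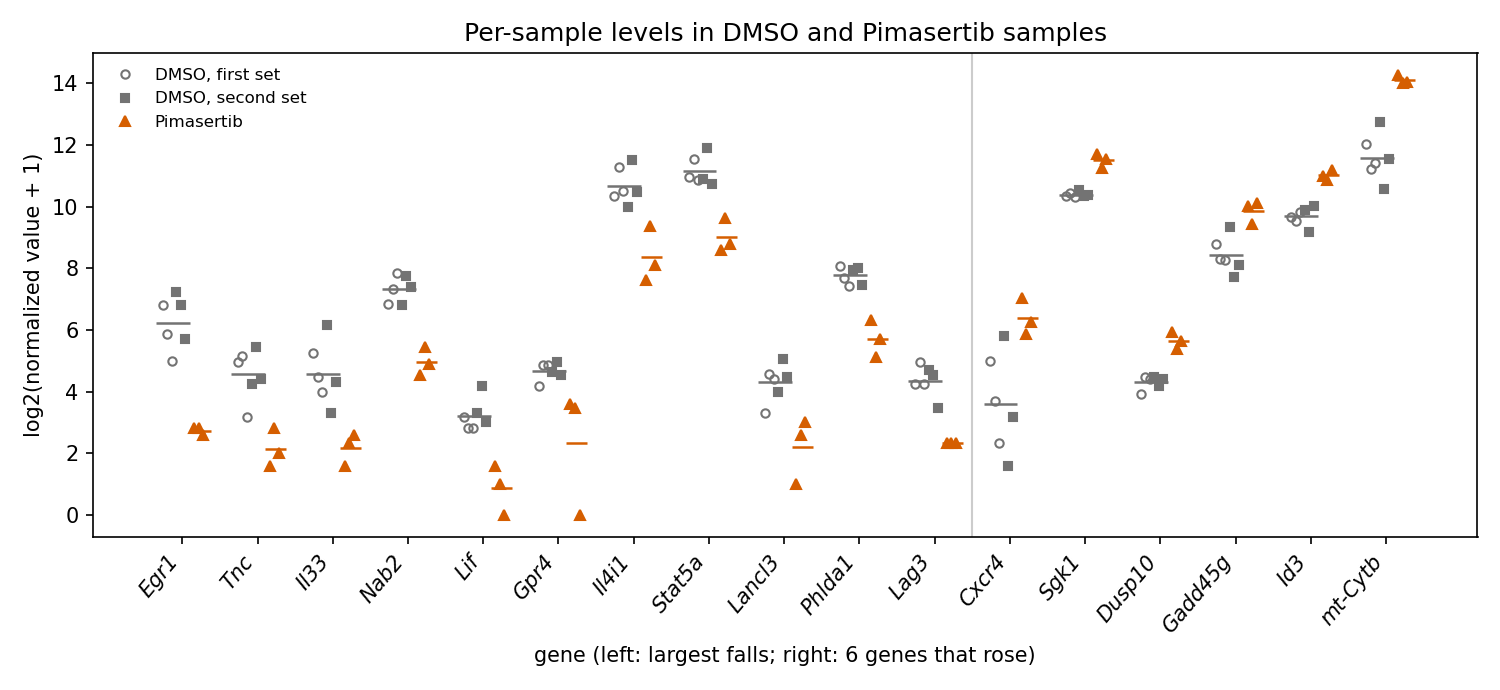
Level of 11 of the largest falls (left of the line) and of 6 genes that rose, as log2(normalized value + 1) in each sample of the first DMSO set (open circles), the second DMSO set (squares) and Pimasertib (triangles), with bars at the group means. For every fall the 3 Pimasertib samples lie below all 6 DMSO samples, while for mt-Cytb and Cxcr4 the DMSO samples are spread over a wider range than the Pimasertib samples.

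Among genes that restrain the pathway, 3 of 15 tested (of 20 listed) were lower and 1 was higher, with a median of -0.01. Errfi1, an inhibitor of EGF receptor family kinases, had 959, 303 and 700 against 1338, 1621.5 and 1699 (-1.42, SE 0.27, adjusted p = 0.000116, limma). Without Pimasertib replicate 2 its difference was -0.94. Dusp6, the phosphatase that acts on ERK, had 17, 9 and 18 against 24, 32 and 50 (-1.18, SE 0.26, adjusted p = 0.000958). Rasa2, a GTPase-activating protein for Ras, was lower by less (-0.60, SE 0.15, adjusted p = 0.00504). The exception in direction was Dusp10, a phosphatase of p38 and JNK, with 60, 41 and 49 against 14, 20 and 21 (1.36, SE 0.31, adjusted p = 0.00197), the highest mean of the 59 groups. Errfi1, Dusp6 and Dusp10 were also called with the mitochondrial share as covariate, together with Dusp14 (-1.17, adjusted p = 0.0148, limma), while Rasa2 was not (adjusted p = 0.0612) and was lost without Pimasertib replicate 1. The remaining members did not pass, among them Dusp1 (-0.48, SE 0.40), Dusp4 (0.39, SE 0.40), Dusp5 (0.41, SE 0.46) and Spry2 (0.58, SE 0.53), and Spry1, Spry4, Dusp8, Spred3 and Lzts1 were below the filter.

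Of the 10 genes that serve as a transcriptional score of MAPK activity in tumour cells, 6 passed the filter. Phlda1 and Dusp6, given above, and Etv5, an ETS transcription factor, were lower and none was higher, and the median of the 6 was -0.77 beside 0.12 for all genes. Etv5 had 321, 439 and 516 against 452, 841.5 and 1097, with overlapping groups (-0.91, SE 0.33, adjusted p = 0.0362, limma), and its call was lost with the mitochondrial share as covariate (-0.19, adjusted p = 0.821). Leaving out any single Pimasertib sample, replicate 3 of either DMSO set or replicate 2 of the second set ended it as well.

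Immediate-early genes, which are transcribed within minutes of stimulation without new protein synthesis, did not move as one group at 2 h of LPS. No earlier time was sampled here, so their first induction was not measured. Of 33 tested members (of 37 listed), 7 were lower, 1 was higher and 25 did not pass, and the median was 0.03. Junb, a subunit of AP-1, had 9539, 10442 and 8065 against 13235, 15559.5 and 24113 and no overlap (-0.86, SE 0.21, adjusted p = 0.00274, limma), but was not called with the mitochondrial share as covariate (-0.34, adjusted p = 0.343). Csrnp1 (-0.70, SE 0.18), Ier2 (-0.75, SE 0.23) and Rhob (-0.60, SE 0.17) were lower without overlap, and Egr3 (-1.15, SE 0.44) and Jund (-0.62, SE 0.22) were lower with overlapping groups. Egr2 went the other way, with 816, 233 and 610 against 104, 165 and 233 (1.59, SE 0.33, adjusted p = 0.000501), and the 2 EGR genes that passed downward, Egr1 and Egr3, thus stood against 1 that passed upward. Fos itself, at 170, 141 and 157 against a DMSO median of 174, did not pass (-0.10, SE 0.15), and neither did Fosl1 (-0.90, SE 0.38, adjusted p = 0.0745) or Myc (-0.12, SE 0.22). In the fit with the mitochondrial share 3 members were lower, Egr1, Egr3 and Fosl2 (-1.21, adjusted p = 0.00416, limma), and none was higher. Without Pimasertib replicate 3 there were 2 members called lower, with Csrnp1, Ier2, Rhob, Egr3 and Jund lost, and without Pimasertib replicate 2 there were 4 lower and 2 higher.

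The promoters of these genes were searched for the letters of 5 motifs on both strands in the 250 bases before the start site, using RefSeq windows of the mm10 assembly. The motifs were the CArG box (bound by SRF), CCGGAAGT (ETS factors), TGANTCA (AP-1), TGACGTCA (CREB and ATF factors) and the interferon response element (a pair of GAAA with 2 bases between them). No overlap between matches of different motifs was removed. A window was found for 9131 of the tested genes. In the whole table of 32851 windows these letters occurred in 1.47%, 2.88%, 6.75%, 1.55% and 2.98% of promoters, in the order given. Of the members of the immediate-early and feedback lists that were called lower, 7 had a window (Errfi1, Dusp6, Junb, Csrnp1, Jund, Rasa2 and Rhob; not Egr1, Egr3 or Ier2), and none of the 7 held any of the 5 motifs, which says only that these letters are not in this window. Among the 542 genes called lower with a window, the CArG box was found in 1.29% and CCGGAAGT in 7.75%, compared with 1.1% and 6.41% of the tested genes with a window and with 1.12% and 6.35% of the 1433 called higher. Among the 98 genes with a window that were called lower without the covariate, with it and with the median of ratios scaling, the shares were 2.04% and 3.06%. TGANTCA was found in 8.16% of these 98 (8 windows) and in 5.17% of the 542, compared with 4.23% of the tested genes and 5.3% of those called higher. TGACGTCA and the interferon response element were in 1.02% and 2.04% of the 98, beside 2.63% and 2.92% of the tested genes. None of these shares was tested. In the immediate-early and feedback lists the CArG box was found in 3 of 41 windows (7.32%) and CCGGAAGT in none. TGANTCA, TGACGTCA and the interferon response element were in 1, 2 and 1 of the 41.

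Secreted signals followed several patterns. Of 33 cytokine, chemokine and growth factor genes tested (of 40 listed), 6 were lower, 2 were higher and 25 did not pass, with a median of -0.08. Cxcl3 and Cxcl2, chemokines that attract neutrophils through CXCR2, were lower in all Pimasertib samples, Cxcl3 with 182, 145 and 223 against 313, 551 and 607 (-1.43, SE 0.20, adjusted p = 1.17e-07, limma) and Cxcl2 with 1029, 462 and 1003 against 1328, 1734 and 1842 (-1.07, SE 0.17, adjusted p = 1.70e-06). Without Pimasertib replicate 2 the difference of Cxcl2 was -0.70. Cxcl1, another ligand of CXCR2, had 673, 385 and 654 against 622, 645.5 and 786 and did not pass (-0.29, SE 0.19, adjusted p = 0.267, limma). The monocyte chemokine Ccl2, with 4254, 4246 and 5227 against 6977, 7788 and 8431, was lower by -0.75 (SE 0.12, adjusted p = 2.61e-06). Ccl22, a ligand of CCR4, had 157, 228 and 171 against 243 to 443 (-0.95, SE 0.32). Lif and the EGF receptor ligand Hbegf (1, 1 and 5 against 3, 11.5 and 17, overlapping) completed the list of falls.

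The 2 higher members were Il12b, which encodes the p40 subunit of IL-12 and IL-23, and Ifnb1, the gene of interferon beta. Il12b had 3667, 2654 and 3016 against 1282, 1657.5 and 1936 (0.94, SE 0.29, adjusted p = 0.0146, limma). Ifnb1 had 312, 222 and 317 against 75, 92.5 and 262, where the highest DMSO sample overlapped the Pimasertib samples (1.35, SE 0.40, adjusted p = 0.0128). Tnf, at 3733, 5217 and 5083 against 6668, 7597 and 8932, did not pass the test although the groups did not overlap (-0.74, SE 0.31, adjusted p = 0.0686), and it was called with the median of ratios scaling (adjusted p = 0.0246, limma). With the mitochondrial share as covariate, 12 members were lower and none higher. In that fit Tnf (-1.36, adjusted p = 0.000901), Il1a (-1.59, adjusted p = 1.11e-05), Il1b (-1.22, adjusted p = 0.000446) and Il10 (-1.10, adjusted p = 0.00708) were called lower, whereas without the covariate Il1a (-0.28), Il1b (0.17) and Il10 (0.36) did not pass, and Il12b (0.20) and Ifnb1 (0.23) were no longer called. Without Pimasertib replicate 3 neither Il12b, Ifnb1 nor Ccl22 was called, without Pimasertib replicate 1 Il12b and Ccl22 were not, and without replicate 1 of the second DMSO set 6 members were higher.

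Of 18 genes of plasminogen activation, prostaglandin synthesis and matrix turnover (of 19 listed), 3 were lower and none was higher, with a median of -0.14. Ptgs2, the inducible cyclooxygenase, had 1134, 1393 and 853 against 1280, 2886 and 3930 (-1.28, SE 0.32, adjusted p = 0.00397, limma). F3, which encodes tissue factor, had 40, 76 and 40 against 85 to 151 (-1.23, SE 0.32). Plaur, the urokinase receptor, had 619, 523 and 734 against 740 to 1983 (-0.91, SE 0.28). Plau, the gene of urokinase, did not pass (-0.16, SE 0.30). The covariate fit called 5 members lower, Ptgs2, Plaur and Timp1 among them, and not F3 (adjusted p = 0.0568). Without Pimasertib replicate 3 Ptgs2 and F3 were not called, without Pimasertib replicate 2 Plaur was not, and without replicate 1 of the second DMSO set 2 members were higher.

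**Figure D4:**
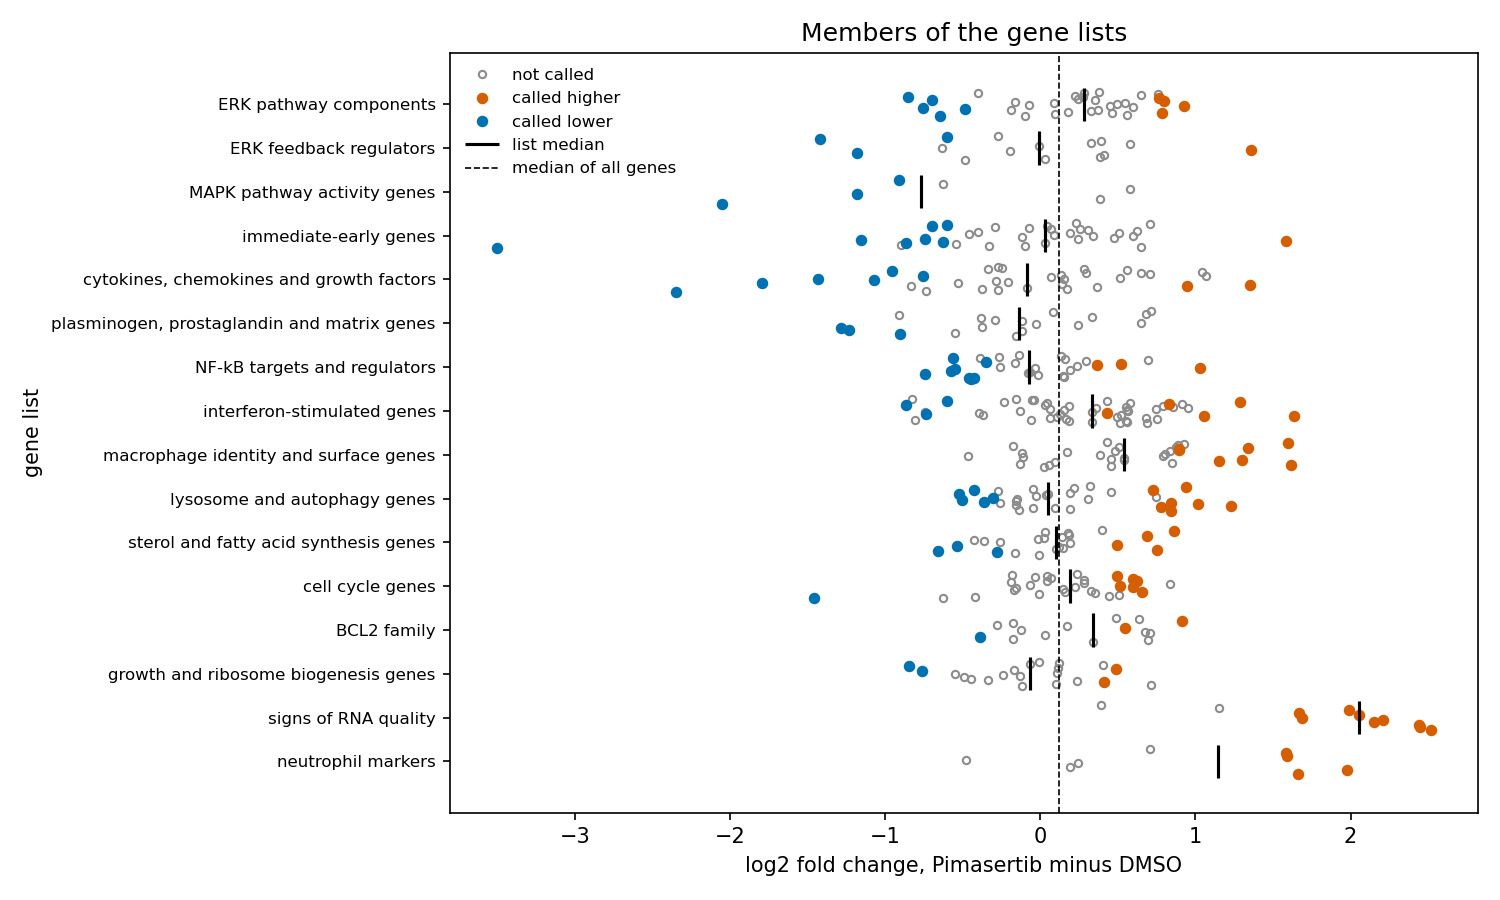
Log2 fold change (Pimasertib minus DMSO) of each tested member of 16 gene lists, with members called higher or lower in colour, list medians as bars and the median of all genes (0.12) dashed. The members with the largest falls belong to the immediate-early, cytokine and MAPK activity lists, and 9 of the 11 genes of the RNA quality list, all of them mitochondrially encoded, were higher.

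Of 28 NF-kB targets and regulators 8 were lower, 3 were higher and 17 did not pass, and the median was -0.07. Nfkb2, the gene of the precursor p100, had 2099, 2668 and 2168 against 3201, 3618 and 5231 (-0.74, SE 0.15, adjusted p = 0.000313, limma). Nfkbia, the gene of the inhibitor IkB alpha, had 26465, 28549 and 26096 against 32236, 38061.5 and 41142 (-0.45, SE 0.09, adjusted p = 0.000348). Cd83 (-0.56), Nfkbib (-0.46) and Nfkbie (-0.43) were lower without overlap, and Relb (-0.58), Tnfaip3 (-0.55) and Sod2 (-0.35) with it. The 3 higher members were Tnip3 (1.03), Traf1 (0.52) and Birc3 (0.37), none of which was called under the median of ratios scaling or in the covariate fit, where Cd83, Tnfaip3 and Gpr84 were lower. None of the 3 was called higher without any one of the Pimasertib samples, replicate 3 of either DMSO set or replicate 2 of the second set. Without Pimasertib replicate 3, or without replicate 2 of the second DMSO set, 5 members were lower, with Relb, Tnfaip3 and Sod2 lost.

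Of 50 interferon-stimulated genes 5 were higher and 3 lower, with a median of 0.33. Among all tested genes 16.0% were higher and 5.68% lower, so these counts do not set the list apart. Isg15, a ubiquitin-like modifier, had 4071, 8449 and 5189 against 1096, 1671.5 and 3901 (1.64, SE 0.51, adjusted p = 0.0181, limma). Rtp4 (1.29), Oasl2 (1.05), Dhx58 (0.83) and Irf9 (0.43) were also higher. The transcription factor gene Irf1, with 5835, 10201 and 6482 against 10687 to 14275, was lower (-0.74, SE 0.19, adjusted p = 0.00463), as were Ifih1 (-0.87) and Tap1 (-0.60). No member was called in the covariate fit, where the median of the list was -0.27. Leaving out Pimasertib replicate 2 or 3 left no higher member, and leaving out replicate 1 of the second DMSO set left 10. The median was 0.0094 without Pimasertib replicate 2, with 25 members above and 25 below 0, and 0.09 without replicate 3 of the first DMSO set. Leaving out replicate 2 or 3 of the second DMSO set, or replicate 3 of the first set, left 2 higher members. Without Pimasertib replicate 1 or 3 no member was lower.

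The lists of cell growth, survival and metabolism held called members in both directions, where 16.0% of all tested genes were higher and 5.68% lower. Ccnd2, the gene of cyclin D2, was the 1 lower member among 30 cell cycle genes, with 259, 493 and 295 against 681, 930 and 1197 (-1.46, SE 0.25, adjusted p = 9.70e-06, limma). The 6 higher members were Ccnb1 (0.62), E2f1 (0.65), Mki67 (0.60), Pcna (0.59), Rrm1 (0.51) and Aurka (0.49). Among 15 members of the BCL2 family tested, the survival gene Bcl2l1 was lower (-0.39, SE 0.11, adjusted p = 0.00717), the effector gene Bak1 (0.55) and the BH3-only gene Bmf (0.92, SE 0.30, adjusted p = 0.0222) were higher, and Bcl2l11, which encodes the ERK-regulated protein BIM, did not pass (0.03, SE 0.08). Of 23 sterol and fatty acid synthesis genes 3 were lower, with Sqle (-0.66) and Cyp51 (-0.53) among them, and 4 were higher, Abcg1 (0.86), Fdps (0.75), Mvd (0.68) and Dhcr7 (0.49). Of 21 growth and ribosome biogenesis genes, Ppan (-0.85) and Wdr43 (-0.77) were lower and Pes1 (0.49) and Npm1 (0.41) higher. Of these, Ccnd2 and Bmf were the 2 called in the covariate fit, and Bmf was not called when any Pimasertib sample or replicate 2 of the second DMSO set was left out. The higher cell cycle genes numbered 1 without Pimasertib replicate 3 and 3 without Pimasertib replicate 2 or replicate 2 of the second DMSO set. Bcl2l1 was lost without Pimasertib replicate 1 and Bak1 without Pimasertib replicate 2, although the BCL2 family still had 1 higher member in the latter case. The higher sterol genes numbered 0 without Pimasertib replicate 2 and 1 without Pimasertib replicate 1 or 3 or replicate 2 of the second DMSO set, and Sqle was lost without Pimasertib replicate 3. Without that DMSO sample none of the 4 growth genes was called, and without Pimasertib replicate 1 neither Ppan nor Wdr43 was. Pes1 and Npm1 were not called without Pimasertib replicate 2, without replicate 3 or with the median of ratios scaling.

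Lysosome and autophagy genes, with 31 tested, divided into 7 higher and 5 lower members, beside 16.0% higher and 5.68% lower of all tested genes. Tfeb, the gene of a transcription factor that drives lysosomal genes, had 191, 113 and 154 against 70 to 106 (0.72, SE 0.24, adjusted p = 0.0247, limma) and was the 1 member called in the covariate fit (0.91, adjusted p = 0.03), but its adjusted p was 0.0559 with the median of ratios scaling. Its relative Tfe3 was lower (-0.43, SE 0.09, adjusted p = 0.000828), as were Sqstm1 (-0.52), Mcoln1 (-0.50), Hexa (-0.37) and Atp6v1h (-0.30). The other higher members included Ctss (1.23), Fnip1 (0.94), Lamp1 (0.84), Gla (0.84) and Ctsl (0.78). Leaving out Pimasertib replicate 3 left no higher member, leaving out Pimasertib replicate 1 or replicate 2 of the second DMSO set left 1, and leaving out Pimasertib replicate 2 left 3. The lower members numbered 2 without Pimasertib replicate 2 or 3 or replicate 2 of the second DMSO set, and 3 without Pimasertib replicate 1 or replicate 2 or 3 of the first set. Tfeb was lost without Pimasertib replicate 1 or 3 or replicate 2 of either DMSO set.

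The largest rises were dominated by the mitochondrial genome. Of the 12 largest rises without overlap 7 were mitochondrially encoded, and 15 of 17 such genes tested were higher with a median difference of 2.15. For mt-Cytb, a subunit of respiratory complex III, the values were 19681, 16283 and 16918 against 1515, 2863 and 6806 in DMSO (2.52, SE 0.59, adjusted p = 0.00223, limma). The others were the 12S ribosomal RNA mt-Rnr1 (2.59) and the complex I subunits mt-Nd6 (2.49), mt-Nd4l (2.45), mt-Nd2 (2.45), mt-Nd5 (2.44) and mt-Nd3 (2.41). The remaining 5 were Cxcr4, the receptor of CXCL12, with 129, 57 and 75 against 2, 10 and 55 (2.78, SE 0.53, adjusted p = 0.000122), the non-classical MHC gene H2-M2 with 86, 125 and 54 against 6, 12.5 and 35 (2.63), the small nucleolar RNA gene Snord118 (2.47), and the predicted genes Gm19765 (2.37) and Gm12589 (2.36). The covariate is itself built from the mitochondrially encoded genes, so the loss of their 7 calls in that fit is no result. None of the other 5 was called there either, where Cxcr4 had a difference of 1.42 (adjusted p = 0.0594) and Gm12589 of 1.39 (adjusted p = 0.051). Snord118 was not called without Pimasertib replicate 3.

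Some macrophage identity and neutrophil genes were higher beside the mitochondrial transcripts. Of 31 macrophage identity and surface genes 7 were higher, none was lower and 24 did not pass, with a median of 0.54. Among all tested genes 16.0% were higher and 5.68% lower. Cd68, a lysosomal glycoprotein of macrophages, had 16638, 15501 and 15733 against 3124, 4741.5 and 11311 (1.61, SE 0.45, adjusted p = 0.00924, limma). C1qc (1.60), Ccr2 (1.34), the Fc receptor genes Fcgr3 (1.30) and Fcgr1 (1.15), Trem2 (0.90) and Cx3cr1 (0.89) were the others. Of 8 neutrophil genes tested S100a9 (1.97), S100a8 (1.66), Camp (1.59) and Ngp (1.58) were higher and the other 4 did not pass, and the neutrophil surface marker Ly6g was at 5 or less in all 9 samples. No member of either list was called in the covariate fit, and the part of the mitochondrial share in these rises was not tested beyond that fit. Leaving out Pimasertib replicate 3 left 1 macrophage gene and no neutrophil gene, and leaving out replicate 2 of the second DMSO set left 2 of each. Without Pimasertib replicate 2 there were 4 macrophage genes and 1 neutrophil gene, without Pimasertib replicate 1 there were 2 macrophage genes, and without replicate 1 of the second DMSO set there were 15.

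A smaller group of rises was called with and without the covariate. For none of the rises named in this paragraph was the Pimasertib mean the highest of the 59 treatment groups. The highest mean was that of Omipalisib for Sgk1, Afatinib for Trib3, PF-04691502 for Id3 and BGT-226 for Plekhm1, Gadd45g and Tsc22d3. Sgk1, a kinase of the AGC family, had 3357, 2447 and 2988 against 1259, 1311 and 1479 (1.12, SE 0.13, adjusted p = 1.93e-11, limma), with a very narrow range in DMSO, and 0.98 in the covariate fit (adjusted p = 8.58e-09). Trib3, a pseudokinase gene of the stress response, had 129, 136 and 135 against 35, 58 and 93 (1.25, SE 0.34) and rose by 2.00 in the covariate fit (adjusted p = 5.21e-07). Plekhm1, an adaptor of late endosomes and lysosomes, had 707, 459 and 508 against 182, 307 and 379 (0.90, SE 0.16, adjusted p = 3.21e-05). Id3, an inhibitor of basic helix-loop-helix factors, with 2030, 1863 and 2329 against 579, 853 and 1035 (1.33, SE 0.24), Gadd45g, a growth arrest gene (1.44, SE 0.29), and Tsc22d3, the glucocorticoid-induced leucine zipper gene (1.16, SE 0.21), were called in both fits as well and were chosen after their values had been seen, as were the following falls. Spsb1 (-1.94, SE 0.30), Cebpd, a C/EBP transcription factor gene (-1.73, SE 0.36), Irf8, a transcription factor of the myeloid lineage (-1.48, SE 0.31), Cish, a suppressor of cytokine signalling and STAT5 target (-1.35, SE 0.18), and Ticam2, the gene of the TLR4 adaptor TRAM (-1.33, SE 0.15, adjusted p = 1.15e-11), were called without the covariate, with it and with the median of ratios scaling. Ticam2 had 143, 168 and 137 against 294, 376.5 and 465, and Cish had 879, 1270 and 647 against 1993, 2280.5 and 2571.

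Finally, Pimasertib was set beside 3 other inhibitors of this pathway, the MEK inhibitors Selumetinib and Refametinib and the ERK inhibitor Ulixertinib. Each was used at its own concentration, and the concentration of Refametinib was chosen for its binding to another kinase, MAPK10, so a difference between compounds cannot be told apart from a difference in dose. The mitochondrial share was 1.16% to 1.34% under Ulixertinib and 1.28% to 3.18% under Selumetinib, below all Pimasertib samples, and 1.23% to 4.45% under Refametinib, and its part in these contrasts was not tested. With the same limma test, Selumetinib gave 0 called genes against DMSO (809, or 6.36%, at an unadjusted p under 0.05), Refametinib gave 0 (3208, or 25.2%) and Ulixertinib gave 2 (0.0157%). In the direct contrasts Pimasertib was lower than Selumetinib for 122 genes (0.960%) and higher for 17 (0.134%), lower than Refametinib for 39 (0.307%) and higher for 2 (0.0157%), and lower than Ulixertinib for 80 (0.629%) and higher for 39 (0.307%). These 3 contrasts share the Pimasertib samples, and each was adjusted over the 12714 genes on its own. The counts rested on the spread estimated over the whole series, since with the 2 inhibitors of a contrast and DMSO alone the totals were 2, 1 and 0. They also moved with single samples. In the contrast with Selumetinib the total was 1543 without Selumetinib replicate 1, 138 without Pimasertib replicate 2 and 36 to 54 without any other sample. In that with Refametinib it was 16 to 21 without Pimasertib replicate 1 or 3 or Refametinib replicate 2 or 3. In that with Ulixertinib it was 535 without Ulixertinib replicate 2, 197 without Pimasertib replicate 2 and 18 to 29 without any other sample.

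Egr1 had 81, 88 and 60 under Selumetinib, 55, 63 and 29 under Refametinib and 94, 32 and 21 under Ulixertinib, all above the 5 to 6 of the Pimasertib samples and all but 2 within the DMSO range of 31 to 148. Pimasertib was lower than Selumetinib by -3.52 (SE 0.59, adjusted p = 2.96e-05, limma), than Refametinib by -2.84 (SE 0.59, adjusted p = 0.00376) and than Ulixertinib by -2.62 (SE 0.59, adjusted p = 0.0113). Gpr4, with 20 to 29, 26 to 30 and 17 to 23 under the same inhibitors, also differed in all 3 contrasts (-2.32, -2.51 and -2.08), values that rest in part on the Pimasertib sample listed at 0. Nab2 differed from Selumetinib by -2.15 (SE 0.27, adjusted p = 6.96e-09), from Refametinib by -1.93 (SE 0.27, adjusted p = 5.65e-07) and from Ulixertinib, where its values of 78, 89 and 68 were below all DMSO samples, by -1.34 (SE 0.27, adjusted p = 0.00209). Stat5a was lower than under each of the others by -1.87, -1.55 and -1.68 (SE 0.31 each), and Il4i1 by -2.10, -1.88 and -1.84 (SE 0.41 each), both with an adjusted p under the threshold in all 3 contrasts.

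Other genes did not separate the inhibitors so clearly. The 95% intervals given here are for single genes and are not adjusted over the genes tested. An interval can therefore lie wholly on the negative side while the adjusted p does not pass. Dusp6 had 18, 13 and 32 under Selumetinib, and the difference of -0.45 from Pimasertib did not pass (95% interval -1.04 to 0.14, adjusted p = 0.409, limma), nor did that of -0.81 from Refametinib (interval -1.40 to -0.23, adjusted p = 0.496), while it did for Ulixertinib (-1.08, interval -1.67 to -0.50, adjusted p = 0.0462). Phlda1 differed from Selumetinib (-1.54, SE 0.35, adjusted p = 0.00611) but did not pass against Refametinib (-1.13, interval -1.82 to -0.45, adjusted p = 0.227) or Ulixertinib (-1.17, interval -1.86 to -0.49, adjusted p = 0.0633). For Cxcl2 the difference passed against Selumetinib (-0.73, SE 0.20, adjusted p = 0.0364) and not against Refametinib (-0.39, interval -0.78 to -0.0012) or Ulixertinib (-0.26, interval -0.65 to 0.13), with values of 916, 1057 and 1108 under Refametinib and 876, 769 and 1214 under Ulixertinib. The genes most above the other inhibitors were Sgk1 (0.79, SE 0.15, adjusted p = 0.000459) and Plekhm1 (0.77, SE 0.19, adjusted p = 0.0245) against Refametinib. They were Gm16702 (1.79), Trib3 (1.40), Sdr42e1 (1.37), the DNA repair glycosylase gene Ogg1 (1.29) and Mapk1ip1 (1.24) against Selumetinib, and they were Gm33370 (2.43), Arl11 (2.38), Gm5086 (2.23), C130050O18Rik (2.14) and Fbxw4 (1.85) against Ulixertinib. The falls among the 5 largest in these contrasts that are not given above were Ak4 (-2.20), Lag3 (-2.26) and Tnc (-2.40) against Selumetinib, Gm46450 (-2.09) and Lancl3 (-2.20) against Refametinib, and Cebpd (-1.99), Lag3 (-2.18) and Lancl3 (-2.13) against Ulixertinib.

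**Figure D5:**
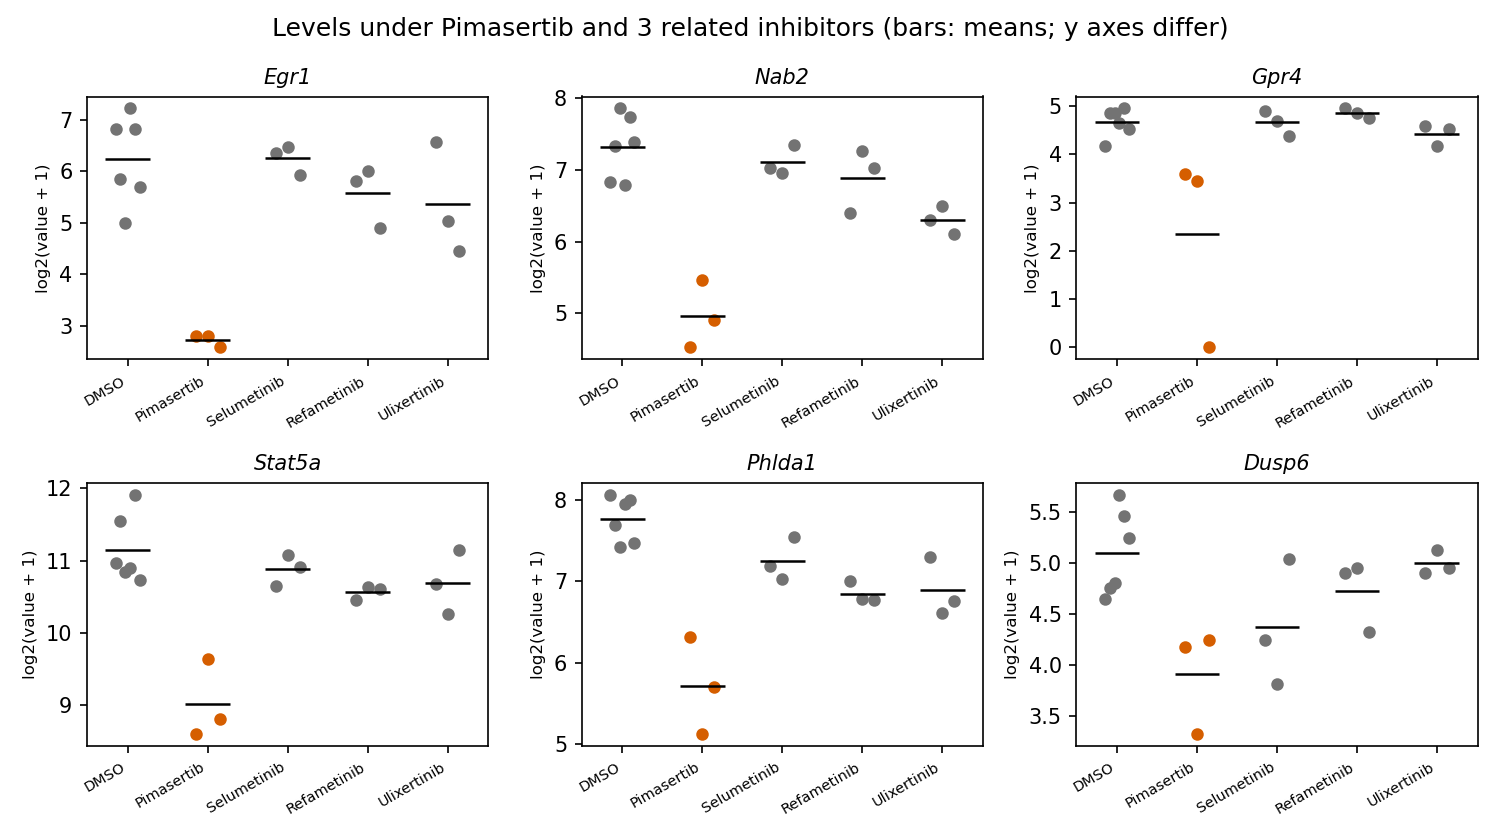
Level of Egr1, Nab2, Gpr4, Stat5a, Phlda1 and Dusp6 as log2(normalized value + 1) in each sample (points) of DMSO, Pimasertib (orange), Selumetinib, Refametinib and Ulixertinib, with bars at the group means and a separate vertical axis for each gene. For Egr1, Nab2, Gpr4, Stat5a and Phlda1 the 3 Pimasertib samples lie below every other sample shown, whereas the Dusp6 values of Pimasertib and Selumetinib overlap.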

How the data were processed

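Per the labels and the authors' methods, reads were aligned to mm10 with TopHat2 2.1.1 and blacklisted regions were removed with bedtools 2.29.2. Exon counts of curated RefSeq genes were then scaled on invariant genes. The methods describe the sequencing as paired-end but the mapped reads as single-end. The deposited values are these scaled counts rounded to whole numbers, treated here as a score without a fixed unit. As these are not raw counts, no count model was used, and limma 3.58.1 (R 4.3.3) was fitted with a variance trend to log2(value + 1) of all 180 samples in 59 groups, without a block, with p-values adjusted by Benjamini and Hochberg over genes with a mean of 10 or more. Reads per sample were estimated from the gaps that scaling leaves among whole numbers. Named genes were the 12 largest called changes per direction without overlap, the genes of MEK and ERK, members of 19 gene lists and the 5 largest direct differences per direction. The comparison and the lists were chosen with earlier results of these data known. Columns without a sample numbered 0. Between samples of the same group, 1.04% to 2.3% of genes had equal values. The methods describe the replicates as independent. The test was checked on simulated data with 200 changed genes. It found 75.5% of log2 changes of 1, with 6 false calls, and 100% of log2 changes of 2, with 8. The simulated spread was capped at the median, and no mitochondrial share or replicate effect was simulated, so the check does not cover these. Some list members are not reported here.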

Additional observations from a re-analysis of the deposited data

Results flagged for a closer look

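Among the 142 genes tested against DMSO that the text or the lists single out, 13 had 1 DMSO sample far from the other 5 by Dixon's test (critical value 0.625), where chance flags about 1 in 20. Replicate 1 of the second DMSO set, the DMSO sample with the highest mitochondrial share, was the highest for mt-Rnr1 (8111, next 4037), mt-Nd5 (3601, next 1776), Arl11 (502, next 230), Fbxw4 (134, next 69), Ifnb1 (262, next 129), C1qc (3478, next 1784) and Ngp (370, next 162), and the lowest for Cyp51 (999, next 1199). Replicate 2 of the second set, the DMSO sample with the lowest share, was the highest for Lif (17, next 9) and Mcoln1 (445, next 286) and the lowest for Dhcr7 (134, next 223), Mvd (81, next 108) and Ccnb1 (762, next 1123).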

How the results depend on the processing

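Of 3097 values of single genes under the alternatives, 2413 were unchanged in direction and call, 665 lost their call, 1 gained it and 18 changed sign. These values cover genes singled out largely because they were called, so few of them could gain a call. Tnf, Il1a, Il1b and Il10, which gained a call in the covariate fit, are not among them. The 2753 calls (2031 higher, 722 lower) became 1247 and 1408 by direction with median of ratios scaling, 1143 (821, 322) with the first and 1208 (794, 414) with the second DMSO set alone, 1304 (1054, 250) with only the 9 samples compared, 755 (660, 95) with a log2 fold change of at least 1, 312 (83, 229) with the mitochondrial share and a replicate block, and 300 (118, 182) with that share alone, an alternative chosen after seeing the data. With single samples left out they ranged from 663 to 3783 (371 to 2745 higher, 292 to 1038 lower). Pseudocounts of 0.5 and 10, the other filters and no variance trend moved no total by over 1.5 times. With only the 2 inhibitors and DMSO, the contrast with Selumetinib gave 2 genes (0 higher, 2 lower), that with Refametinib 1 (0, 1) and that with Ulixertinib 0 (0, 0). Median of ratios scaling gave 139 lower than Ulixertinib. Single samples left out gave 36 to 1543 for Selumetinib (2 to 957 higher, 33 to 586 lower), 16 to 49 for Refametinib (1 to 3, 15 to 46) and 18 to 535 for Ulixertinib (2 to 374, 15 to 161). The 2 DMSO sets differed in 0 genes in the limma test (310 at an unadjusted p under 0.05), also with the block and with a filter of 50.

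The labels do not say what the replicate numbers share. Correlations of the deviations of same-numbered samples were 0.20 to 0.35 between Pimasertib and the first DMSO set and 0.09 to 0.35 for the second, and each Pimasertib sample correlated best with its own number in both sets, a hint from the data only. The replicate block gave 4312 calls (2896 higher, 1416 lower), and in the direct contrasts 536 (136, 400) for Selumetinib, 90 (10, 80) for Refametinib and 1211 (690, 521) for Ulixertinib. All 142 genes counted here had the same direction and call with the block. The block kept all 2031 higher and 722 lower calls, so this agreement adds nothing for called genes. Genes not called before could change: the higher members went from 1 to 4 for immediate-early genes and from 6 to 10 for cell cycle genes. The lower members of these lists went from 7 to 9 and from 1 to 3. The macrophage list had 17 higher and 1 lower member with it, and the interferon list 11 and 4.

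With the mitochondrial share as covariate, sign changes without a call were seen for mt-Rnr1 (-0.21), Grb2 (-0.0452), Tnip3 (-0.23), Oasl2 (-0.0249), Rtp4 (-0.0030), Fcgr1 (-0.22), Fcgr3 (-0.47), Lamp1 (-0.0419), Ctss (-0.19), Gla (-0.0014), mt-Nd4 (-0.0155), mt-Co1 (-0.15), S100a8 (-0.13), S100a9 (-0.0458) and Ngp (-0.10), and with the block added for Tnip3 (-0.0689), Fcgr3 (-0.25) and mt-Co1 (-0.0309). The cause of the changes in this part was not tested. Low values carry a large counting error, so small differences in genes near the filter were not detectable.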
